A study of Mus musculus with 6 samples.

Results

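The Hox genes of the Hoxa, Hoxb, Hoxc and Hoxd clusters were examined in the 4T1.2 line, which is a BALB/c mouse mammary carcinoma derived from 4T1 and able to spread to bone. Members were all probes whose gene name in the array files is Hoxa, Hoxb, Hoxc or Hoxd followed by digits, which gave 38 of the 27670 genes on the array, measured by 49 probes. The Hoxa cluster had 11 genes, Hoxb 10, Hoxc 8 and Hoxd 9. Each gene was represented by its probe with the highest mean log2 signal over all 6 arrays, and a gene was called detected on an array where the scanner marked that probe as well above background. The probes and genes were thus selected on signal level and detection over both groups, and these are given as a description with no test. The groups were 3 arrays of 4T1.2 cells carrying the pMSCV retroviral vector with Irf7, a transcription factor of the type I interferon system, and 3 arrays of 4T1.2 cells carrying the same vector without an insert (base vector). Both populations had been selected with puromycin, cloned from single cells and pooled from several clones. The arrays came from 3 separate experiments with the stable cells, so p-values measure the spread between cultures of 1 pooled population per group, and an effect of Irf7 cannot be told apart from a difference between the clones pooled.

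Hox genes encode homeodomain transcription factors that set the identity of body regions along the head-to-tail axis. They lie in clusters in which the order along the chromosome follows the order of their domains in the embryo, low-numbered genes acting toward the head and high-numbered genes toward the tail and limb ends. Genes of the same number in different clusters are paralogs with closely related homeodomains. Polycomb proteins keep unused clusters silent, trithorax proteins keep used ones active, retinoic acid induces low-numbered genes first, and Hox proteins bind DNA together with the TALE homeodomain proteins of the Pbx and Meis families. In the mouse mammary gland, Hoxa9, Hoxb9 and Hoxd9 act together in the growth of the gland in pregnancy, and Hoxc6 is also expressed there.

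The likeness of homeoboxes bears on what the probes read. Of the 49 Hox probes, the only 2 that shared a run of at least 15 bases with a probe of another Hox gene were those of Hoxa9 and Hoxb3, both of which lie in the homeobox and have 22 bases in common. The longest run shared by any other pair of Hox genes' probes was 14 bases. Values of Hoxa9 and Hoxb3 are therefore uncertain as readings of a single gene. Probes were compared only with other Hox probes and not with transcripts, so a short shared run does not show that the other probes read a single gene. How far the probes bind transcripts of other Hox genes was not tested.

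Promoters were available in the RefSeq table (GRCm38.p6) for 22 of the 38 Hox genes, in 24 windows of 250 bases before a transcript start. They were searched on both strands for TAAT (the core that homeodomains bind), TGATTNAT (a site of Pbx with Hox proteins), TTTATG (a site favoured by high-numbered Hox proteins) and GAAA followed by any 2 bases and GAAA (an element of the kind that interferon regulatory factors bind). TAAT can lie inside TGATTNAT where N is A. The windows of 3 genes are shown because they belong to Hoxa genes with a large change, a small change and no detected signal in the results that follow. They are Hoxa2 (chr6:52164832-52165081), Hoxa7 (chr6:52218574-52218823) and Hoxa11 (chr6:52245811-52246060), all on the minus strand, 5′ to 3′, with matches to TAAT, TGATTNAT or TTTATG on either strand in capitals.
Hoxa2: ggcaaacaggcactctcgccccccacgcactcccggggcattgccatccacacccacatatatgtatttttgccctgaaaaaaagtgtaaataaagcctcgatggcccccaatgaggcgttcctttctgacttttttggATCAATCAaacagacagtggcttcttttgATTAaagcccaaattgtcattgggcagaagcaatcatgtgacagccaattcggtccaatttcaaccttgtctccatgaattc
Hoxa7: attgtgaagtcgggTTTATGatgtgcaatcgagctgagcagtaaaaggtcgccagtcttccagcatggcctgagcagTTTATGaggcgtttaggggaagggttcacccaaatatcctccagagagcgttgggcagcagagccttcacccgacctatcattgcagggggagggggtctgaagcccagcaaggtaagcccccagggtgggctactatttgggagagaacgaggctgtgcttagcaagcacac
Hoxa11: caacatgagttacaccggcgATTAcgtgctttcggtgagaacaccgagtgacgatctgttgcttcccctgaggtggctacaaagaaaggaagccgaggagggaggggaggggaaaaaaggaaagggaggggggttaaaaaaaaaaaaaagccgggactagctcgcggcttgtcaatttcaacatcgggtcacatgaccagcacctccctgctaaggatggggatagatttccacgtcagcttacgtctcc
The paired GAAA element was in 0 of the 24 Hox windows and in 2.98% of all 32851 windows of this length. TGATTNAT was in 2 Hox windows, one of Hoxa2 and one of Hoxd11, and in 2.82% of all windows. TTTATG was in 5 Hox windows against 10.8% of all, and TAAT in 18 against 54.9% of all. These are matches of letters, not sites of binding.

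On each array 43379 spots carried mouse probes, of which 56.8 to 59.7% were well above background on the IRF7 arrays and 54.3 to 56.8% on the base-vector arrays. The 75th percentile of the signal was 1293 to 1458 on the IRF7 arrays and 1148 to 1291 on the base-vector arrays, and signals below are given as a percentage of each array's own 75th percentile, a scale that compares arrays for 1 probe and does not compare probes. The introduced gene fitted the labels: the Irf7 probe read 347, 356 and 344% in IRF7 cells, against 19.1, 17.0 and 18.0% in base-vector cells (log2 change 4.28, SE 0.049, limma adjusted p = 3.19e-07). Of 14 mammary carcinoma markers, 9 were detected on all 6 arrays, among them Epcam, Cdh1, Krt8 and Krt18, where 51.2% of all genes were. Of the rest, Krt5 was detected on 5 arrays, Cldn7 on 3, Esrp1 on 1, and Krt19 and Cldn4 on none. Slide 1 held all 3 IRF7 arrays and base-vector replicate 1, while slide 2 held the other base-vector arrays, and each slide had a scan of its own, so each value within slide 1 rests on a single base-vector array.

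The 4 clusters differed in how many of their genes were detected at all. On all 6 arrays, 9 of 11 Hoxa genes, 2 of 10 Hoxb genes, 1 of 8 Hoxc genes and 0 of 9 Hoxd genes were well above background. These 12 genes, among them Hoxa2, Hoxa3, Hoxa4, Hoxa5, Hoxa6, Hoxa7, Hoxa9, Hoxa10, Hoxb3, Hoxb6 and Hoxc4, were 31.6% of the Hox genes, against 51.2% of all genes on the array. A further 4 were detected on some arrays (Hoxa13, Hoxc6, Hoxd4 and Hoxd9), and 22 on none, while 36.7% of all genes were detected on none. The Hoxa cluster was detected as a continuous block that ended between Hoxa10 and Hoxa11.

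Position within the clusters was set against detection next. Of the 20 genes with numbers 1 to 7 in any cluster, 10 were detected on all 6 arrays, of the 10 genes with numbers 8 to 10 only Hoxa9 and Hoxa10 were, and of the 8 genes with numbers 11 to 13 none was. The 10 low-numbered genes were 7 of 7 in Hoxa, 2 of 7 in Hoxb, 1 of 3 in Hoxc and 0 of 3 in Hoxd, so the pooled order rests mostly on Hoxa. Hoxa11, which patterns the forearm and uterus, read 0.599, 0.494 and 0.480% in IRF7 cells, against 0.636, 0.685 and 0.712% in base-vector cells, all at the background of the array. Hoxa13, which patterns the digits and the urogenital tract, had 1 of its 2 probes well above background on IRF7 replicate 3 alone (4.85%), against 0.526 and 0.438% in the other IRF7 cells and 0.560 to 0.626% in base-vector cells. Its other probe stayed at the background on all 6 arrays. The edge of detection lay near a processed signal of 28 to 34, the lowest signal well above background on each array. Hoxb3, the dimmest gene detected on all 6 arrays, read processed signals of 71.7, 90.6 and 84.5 in IRF7 cells, against 100, 97.9 and 84.9 in base-vector cells. Hoxc6, detected on 3 arrays, read 33.6, 27.7 and 50.4 in IRF7 cells, against 29.2, 35.3 and 30.6 in base-vector cells.

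**Figure D1:**
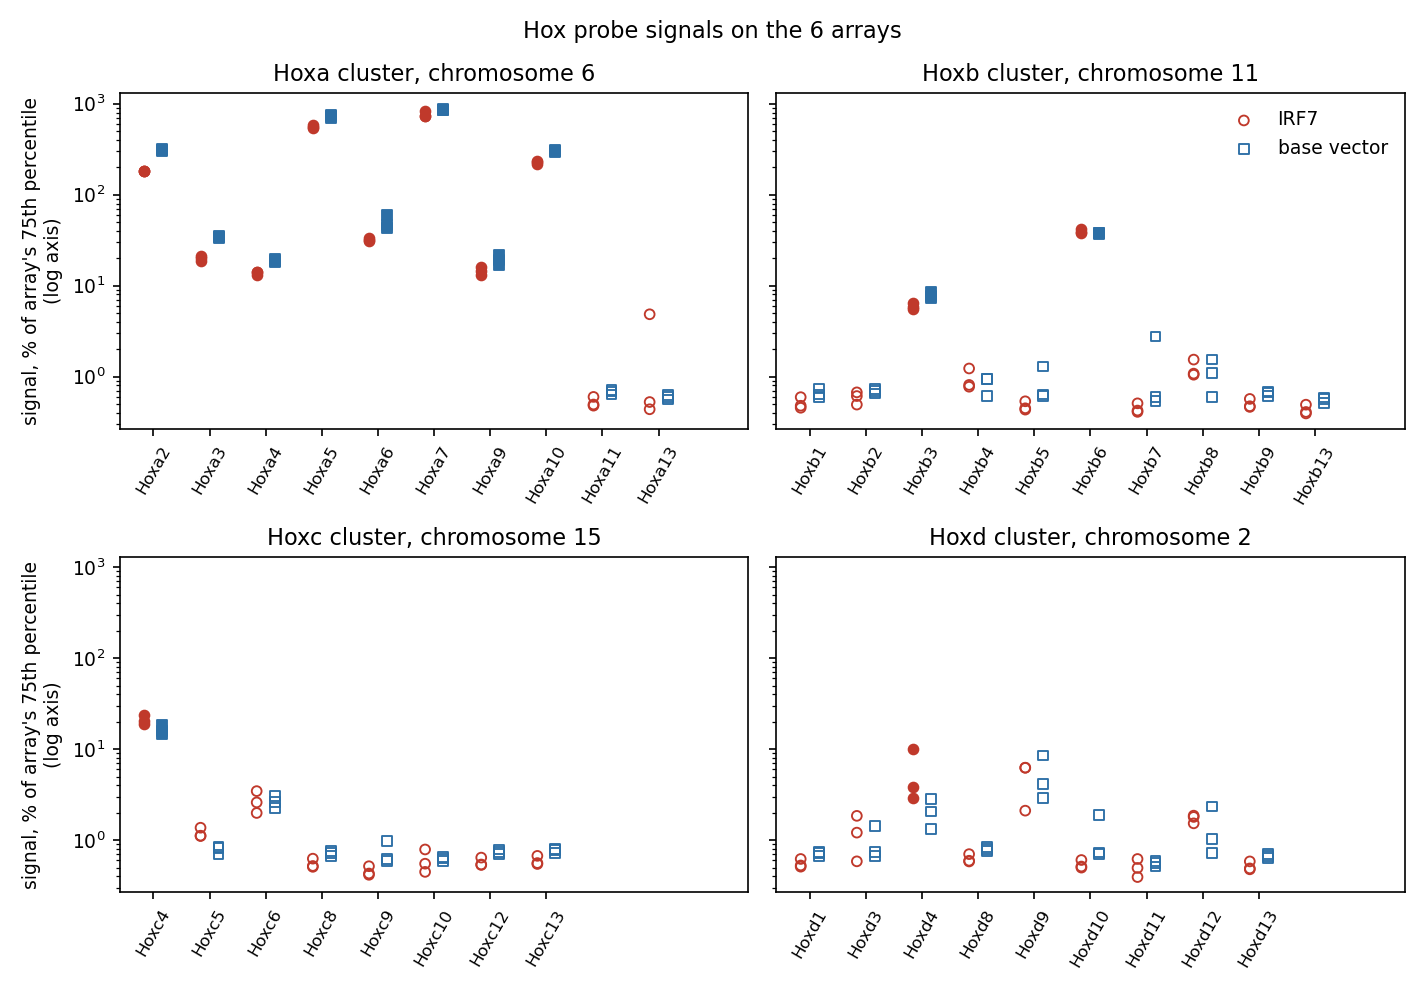
Signal of each Hox gene's probe on each array, as a percentage of the array's 75th percentile on a log axis, in panels by cluster with genes in order of number. Circles are the 3 IRF7 arrays and squares the 3 base-vector arrays, filled where the probe was well above background on all 3 arrays of that group. Hoxa2 to Hoxa10 are filled in both groups, with Hoxb3, Hoxb6 and Hoxc4, and most other genes sit near 1% or lower.

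The comparison of IRF7 cells with base-vector cells asked which Hox genes differed in basal expression in cells with introduced Irf7. The Irf7 probe was detected in base-vector cells too, at the lower level given above. Genes were tested if their probes were well above background on at least 3 of the 6 arrays, which left 15 of the 38 Hox genes: 9 Hoxa, 2 Hoxb, 2 Hoxc and 2 Hoxd. At a limma adjusted p under 0.05 over all 15414 genes, 10 Hox genes were lower in IRF7 cells, 1 was higher and 4 did not pass. Of all genes tested 61.0% passed, 31.9% as higher and 29.1% as lower, so a Hox gene past the threshold is in itself no exception, and the 66.7% of tested Hox genes that were lower stand against the 29.1%. In these bulk samples fewer expressing cells and less RNA per cell cannot be told apart.

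All 9 tested Hoxa genes fell in IRF7 cells (Hoxa7 alone turned, to 0.02, when arrays were not scaled), with log2 changes between -0.79 and -0.17 and a median of -0.45, where the median of all tested genes was 0.03. By the probes chosen and after scaling, no array of IRF7 cells reached any base-vector array for these 9 genes. The groups overlapped by the dimmer Hoxa3 probe (19.6 to 21.7% in IRF7 cells, 20.2 to 25.4% in base-vector cells). Without scaling they also overlapped for Hoxa7, Hoxa9 and Hoxa10. Groups that did not overlap, with IRF7 cells lower, were found for 10 Hox genes and for 32.2% of all genes tested. With IRF7 cells higher they were found for 2 Hox genes and 35.6% of all (67.8% in both directions). Those 2 were Hoxc4 and Hoxd4, and Hoxd4 entered the test only through the IRF7 arrays, where it was brighter. Of all tested genes, 12.5% were lower by more than the Hoxa median, and the genes past the threshold in either direction had a median absolute log2 change of 0.35, so the Hoxa changes were of ordinary to moderate size for this comparison.

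By the brighter probes, the largest changes were those of Hoxa2 and Hoxa3. Hoxa2, which sets the identity of the second pharyngeal arch, read 184, 180 and 182% in IRF7 cells, against 308, 304 and 317% in base-vector cells. Both groups were tight and well apart, giving a 1.70-fold lower level (log2 change -0.77, SE 0.030, limma adjusted p = 1.25e-05). Hoxa3, needed for thymus and parathyroid, read 18.6, 19.9 and 21.0% in IRF7 cells, against 34.1, 33.6 and 34.9% in base-vector cells. It was 1.73-fold lower (log2 change -0.79, SE 0.050, limma adjusted p = 6.76e-05), by its brighter probe. A dimmer Hoxa3 probe, also detected on all 6 arrays, did not pass (log2 change -0.15, SE 0.093, limma adjusted p = 0.22), so the size of the Hoxa3 change rests on which probe is read.

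Hoxa4, which patterns cervical vertebrae, read 13, 14.2 and 14% in IRF7 cells, against 18.0, 19.6 and 18.5% in base-vector cells. The groups did not overlap and the level was 1.36-fold lower (log2 change -0.45, SE 0.051, limma adjusted p = 0.000681). As with Hoxa3, its dimmer probe had the same sign without passing (log2 change -0.25, SE 0.14, limma adjusted p = 0.188). Hoxa5, required in lung development, read 578, 551 and 537% in IRF7 cells, against 730, 696 and 759% in base-vector cells. The groups were apart again, with a 1.31-fold lower level (log2 change -0.39, SE 0.047, limma adjusted p = 0.000823).

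Hoxa6, a gene of the thoracic segments, read 31.2, 33.7 and 31.4% in IRF7 cells, against 46.2, 59.5 and 43.5% in base-vector cells. Base-vector replicate 2 stood above its group here, and the change was -0.62 on the log2 scale (SE 0.12, limma adjusted p = 0.00632, 1.54-fold lower). With slide as a block it was -0.53 and no longer passed (limma adjusted p = 0.0651). Hoxa7, also of the thoracic segments, read 829, 735 and 741% in IRF7 cells, against 881, 863 and 855% in base-vector cells. Its lowest base-vector array was only just above its highest IRF7 array, and its log2 change of -0.17 (SE 0.054, limma adjusted p = 0.0341) was the smallest of the cluster, with 0.02 when arrays were not scaled. Leaving out IRF7 replicate 2 or 3 or any base-vector replicate left it outside the threshold, at limma adjusted p = 0.099, 0.105, 0.0885, 0.076 and 0.0668.

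At the high-numbered end, Hoxa9, a regulator of blood progenitors, read 16.2, 14.4 and 13% in IRF7 cells, against 19.2, 21.7 and 16.9% in base-vector cells. The gap between the groups was narrow beside their spread (log2 change -0.40, SE 0.12, limma adjusted p = 0.0294). The call was lost on leaving out IRF7 replicate 2 or 3 (limma adjusted p = 0.0742 and 0.0838) or base-vector replicate 1 or 2 (0.0649 and 0.0726), and its probe is the one that shares 22 bases with Hoxb3. Hoxa10, a gene of the uterus and hindlimb, read 229, 216 and 234% in IRF7 cells, against 304, 295 and 308% in base-vector cells. It was the highest-numbered Hoxa gene detected on all 6 arrays, with groups well apart and a 1.34-fold lower level (log2 change -0.42, SE 0.041, limma adjusted p = 0.000369).

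Across the 9 Hoxa genes the log2 change was less negative with position toward Hoxa10 (Pearson's r = 0.59, Spearman's rho = 0.62, across 9 genes that share arrays and a neighbourhood and are not replicates). With the dimmer probes of Hoxa3 and Hoxa4 in place of the brighter ones, Pearson's r was 0.24 and Spearman's rho 0.15, so the order rests on the choice of probe. Within slide 1 the 9 log2 changes lay between that of Hoxa3 (-0.78) and that of Hoxa7 (-0.20). Leaving arrays unscaled shifted every gene alike and moved the median of all genes to 0.23, so the Hoxa median lay 0.48 below it with or without scaling, by construction.

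Other transcripts of the Hoxa cluster fell as well. Among 10 probes of the files that lie within the 4 clusters and carry no Hox gene name, 2 were detected on all 6 arrays, 1 on some and 7 on none, and both of the first lie in the Hoxa cluster. The probe of Hoxaas2 (named 5730446D14Rik in the files), a non-coding transcript on the plus strand, lies at chr6:52132363-52132422 (mm7), between the Hoxa2 and Hoxa3 probes. It read 34.3, 40.8 and 35.6% in IRF7 cells, against 93.3, 97.2 and 97.0% in base-vector cells. That was 2.60-fold lower (log2 change -1.38, SE 0.071, limma adjusted p = 3.24e-05), a larger change than that of any Hoxa gene. The probe of Hoxaas3 (2700086A05Rik in the files), between the Hoxa6 and Hoxa7 probes, read 67.9, 78.8 and 69.1% in IRF7 cells, against 122, 130 and 115% in base-vector cells. It was lower by about as much as Hoxa2 (log2 change -0.77, SE 0.075, limma adjusted p = 0.000358). The files place this probe at chr6:52174074-52174133 on the minus strand, the strand of the Hoxa genes, so which transcript it reads is uncertain.

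The genes tested within 1 Mb of the Hoxa cluster had changes of either sign. Of 9 tested within 1 Mb on each side, 1 was higher and 2 lower, beside 31.9% higher and 29.1% lower of all genes. Their median was -0.09 on the log2 scale. NAP123993-1 and NAP057047-1, which carry no gene symbol, are among the 9. Skap2, an adaptor protein gene and the nearest tested gene beyond the low-numbered end, had a log2 change of -0.23 (limma adjusted p = 0.00235, with -0.03 and no call without scaling). Hibadh, a gene of valine breakdown and the nearest beyond Hoxa10, had 0.05 (limma adjusted p = 0.315). Hnrnpa2b1, an RNA-binding protein gene, was higher (0.41, limma adjusted p = 0.000129, but 0.02 by its dimmest probe), and Cbx3, a heterochromatin protein gene beside it, was at -0.02. Within 5 Mb on each side the lean was downward: 73 genes had a median of -0.14, with 32 lower (43.8%) and 12 higher. Over chromosome 6 without Hox genes, 27% of 753 genes were lower and the median was 0.02.

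**Figure D2:**
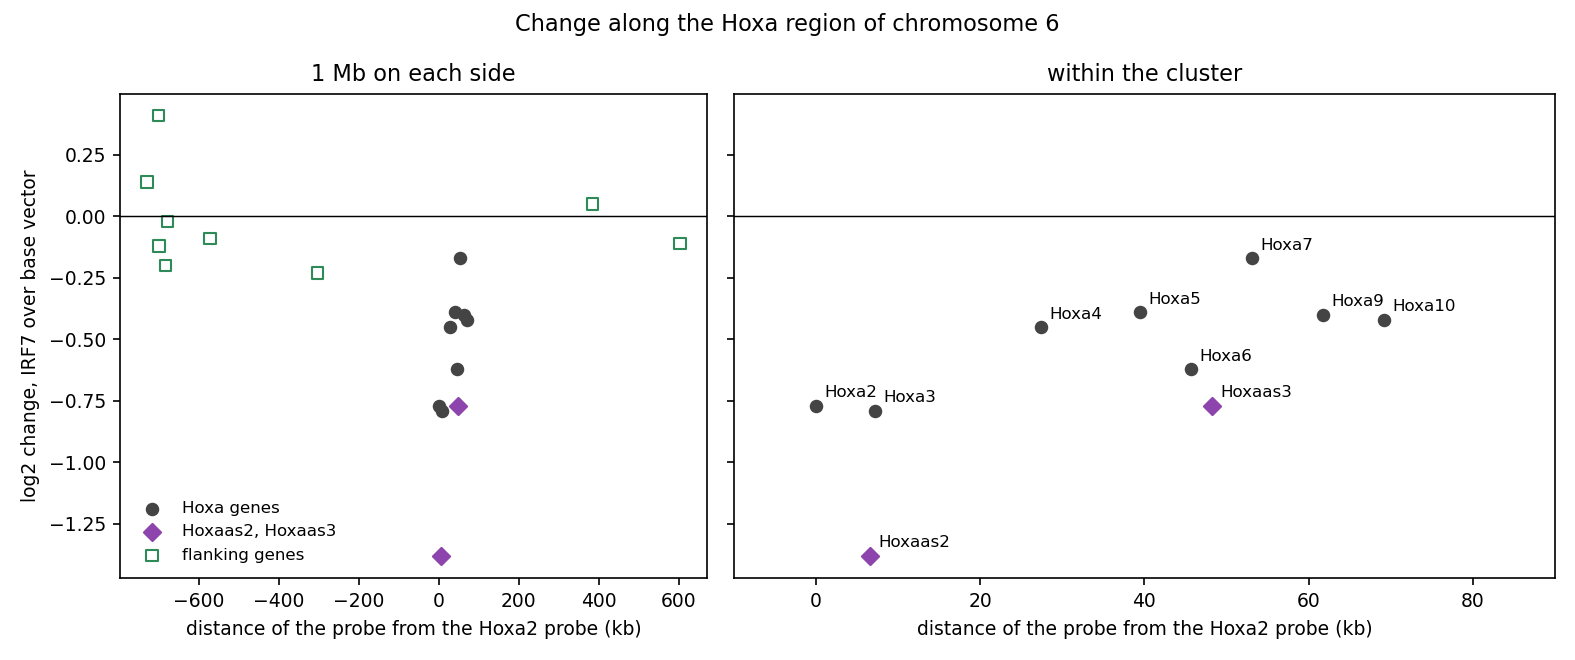
Log2 change (IRF7 over base vector, limma) of each tested gene against the distance of its probe from the Hoxa2 probe in kb, for 1 Mb on each side of the cluster (left) and within the cluster (right). Filled circles are Hoxa genes, diamonds Hoxaas2 and Hoxaas3, and open squares flanking genes; the Hoxa genes shown lie between -0.79 and -0.17 (Hoxa7 at 0.02 without scaling between arrays), the diamonds at -1.38 and -0.77, and the flanking genes between -0.23 and 0.41.

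Outside the Hoxa cluster 6 Hox genes were tested and the changes had no common direction. Hoxb3, a hindbrain and cervical gene and the paralog of Hoxa3, read 5.55, 6.51 and 5.79% in IRF7 cells, against 7.76, 8.52 and 7.25% in base-vector cells. The groups did not overlap (log2 change -0.40, SE 0.085, limma adjusted p = 0.00832), though the call was lost with slide as a block (limma adjusted p = 0.0647) and the probe shares bases with that of Hoxa9. Hoxb6, a gene of the thoracic segments and limb bud, read 38.9, 42.3 and 37.9% in IRF7 cells, against 36.6, 38.2 and 38% in base-vector cells. These ranges overlapped and the change did not pass (log2 change 0.08, 95% interval -0.05 to 0.20, limma adjusted p = 0.232, though 0.28 and past the threshold without scaling). The other Hoxb6 probe read at the background throughout.

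Hoxc4, the paralog of Hoxa4 and also a gene of the neck region, was the only Hox gene past the threshold as higher in IRF7 cells. It read 18.7, 20.5 and 24.0% in IRF7 cells, against 14.6, 18.6 and 15.9% in base-vector cells. The lowest IRF7 array was just above the highest base-vector array (log2 change 0.36, SE 0.13, limma adjusted p = 0.0498). The call was lost under 11 of 20 alternatives, among them leaving out IRF7 replicate 2 or 3 (limma adjusted p = 0.097 and 0.123) or base-vector replicate 1 or 3 (0.12 and 0.121), and within slide 1 the log2 change was 0.52 (0.0628). Hoxc6 read 2.60, 1.99 and 3.46% in IRF7 cells, against 2.26, 3.08 and 2.61% in base-vector cells, with overlapping groups and a log2 change of -0.01 (95% interval -0.56 to 0.55, limma adjusted p = 0.979).

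Hoxd4, the third detected gene of paralog group 4, read 10.1, 2.88 and 3.83% in IRF7 cells, against 1.32, 2.82 and 2.06% in base-vector cells. It was well above background on all 3 IRF7 arrays and on no base-vector array, and the groups did not overlap, although IRF7 replicate 2 and base-vector replicate 2 were nearly equal. It entered the test only through the IRF7 arrays, the group where it was brighter, so these values are a description. The test did not pass (log2 change 1.29, 95% interval -0.04 to 2.61, limma adjusted p = 0.083), and the mean leaned on IRF7 replicate 1, without which the log2 change of Hoxd4 was 0.76 (0.44 with normexp background correction). Hoxd9, one of the mammary paralogs, read 6.25, 6.26 and 2.11% in IRF7 cells, against 8.53, 4.17 and 2.92% in base-vector cells. Arrays of each group fell on both sides of the background limit, and its change could not be told from zero (log2 change -0.11, 95% interval -1.56 to 1.34, limma adjusted p = 0.883). The other Hoxd9 probe read at the background throughout (0.562 to 0.831%).

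Paralogs of the same number thus had changes of either sign. In group 3 both detected members, Hoxa3 and Hoxb3, were lower, in group 4 Hoxa4 was lower and Hoxc4 higher, and in group 6 Hoxa6 was lower while Hoxb6 and Hoxc6 did not pass. The differences between paralogs' changes were not tested. The remaining 22 genes, among them all 3 members of paralog group 8 on the array, all of groups 11 and 12, Hoxb1, Hoxb2, Hoxb4, Hoxb5, Hoxb7, Hoxb9, Hoxb13, Hoxc5, Hoxc9, Hoxc10, Hoxc13, Hoxd1, Hoxd3, Hoxd10 and Hoxd13, were detected on 0 of the 6 arrays, and no difference in them was detectable at this signal.

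**Figure D3:**
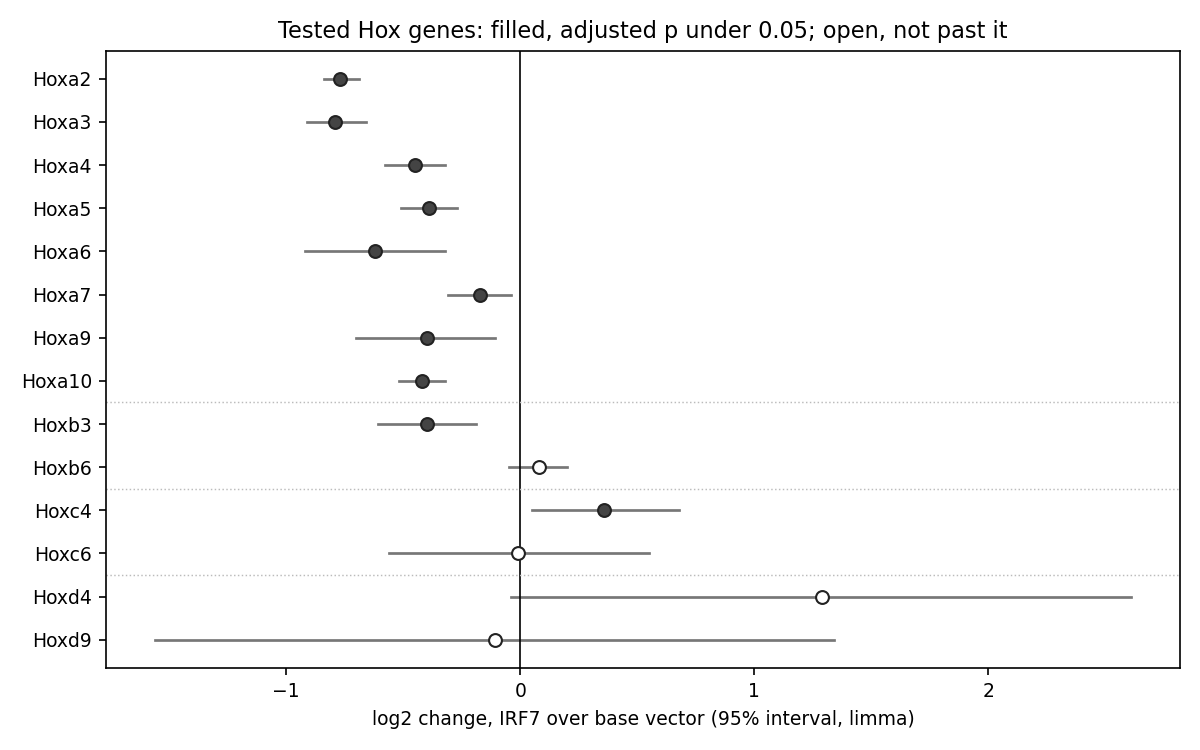
Log2 change (IRF7 over base vector) of tested Hox genes with the limma 95% interval as a line, ordered by cluster and number, filled where the adjusted p was under 0.05. The Hoxa genes shown and Hoxb3 lie below 0 (Hoxa7 at 0.02 without scaling between arrays), Hoxc4 lies above 0, and Hoxd4 and Hoxd9 have the widest intervals.

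The number of alternatives under which a call passed differed among the members, and the 20 were not independent checks. For a gene with 1 probe detected on all 6 arrays, those on the filter and on probe choice left the log2 change as it was. Slide as a block and slide 1 alone are 1 check. Hoxa2 passed under all 20 alternatives, Hoxa3, Hoxa5, Hoxa6 and Hoxa10 under 19, Hoxa4 under 18, Hoxb3 under 17 and Hoxa9 under 13. Hoxa7 passed under 10 and Hoxc4 under 9. The number of Hox genes lower was 4 without scaling between arrays, among them Hoxa2, Hoxa3 and Hoxa6. It was 6 with slide as a block, among them Hoxa2, Hoxa3, Hoxa4, Hoxa5 and Hoxa10. Of all 15414 genes tested, 1701 were lower without scaling and 3476 with slide as a block.

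**Figure D4:**
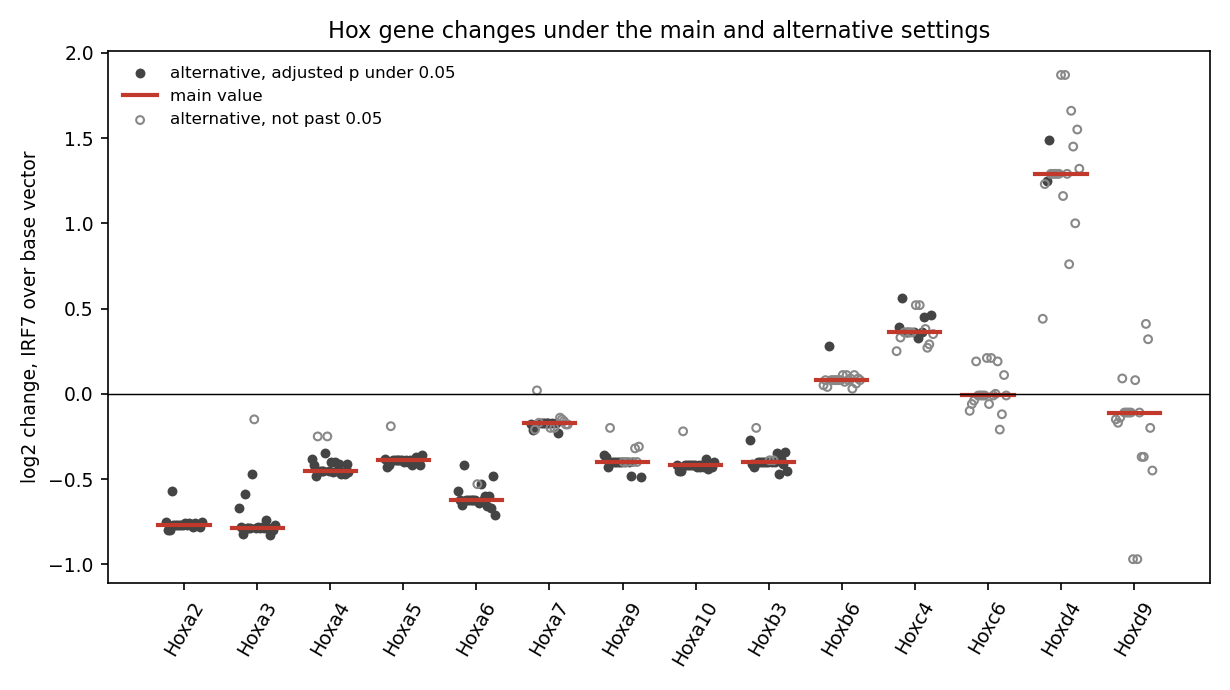
Log2 change (IRF7 over base vector) of tested Hox genes under the alternative settings (points, filled where the limma adjusted p was under 0.05) and as reported (bars). All settings of Hoxa2 to Hoxa6, Hoxa9, Hoxa10 and Hoxb3 lie below 0, Hoxa7 reaches 0.02 without scaling, and the points of Hoxd4 and Hoxd9 spread most.

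The partners of Hox proteins were examined through a list of 11 TALE genes, all tested. Of these, 7 were lower in IRF7 cells, 0 higher and 4 did not pass, where 29.1% of all tested genes were lower and 31.9% higher. The median log2 change was -0.21, against 0.03 over all tested genes. Without scaling the list had 2 lower and 1 higher, at a median of -0.01. The 4 with the smallest p were Meis3, Tgif2, Meis2 and Pbx3. Tgif2, a repressor of the TALE class, read 992, 933 and 963% in IRF7 cells, against 1669, 1537 and 1654% in base-vector cells (log2 change -0.75, SE 0.045, limma adjusted p = 5.78e-05). Meis3 (log2 change -0.71), Meis2 (-0.45) and Pbx3 (-0.30), which bind DNA with Hox proteins, were also lower, Meis2 and Pbx3 without a call when arrays were not scaled. Among those that did not pass were Pknox1, Pknox2 and Pbx4.

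Among regulators of the clusters, counts were near those of all genes. Of 30 tested Polycomb genes, 11 were higher and 10 lower, beside 31.9% higher and 29.1% lower of all genes, with a median of 0.07, a split that became 16 higher and 1 lower without scaling. Phc1, a subunit of Polycomb repressive complex 1, was lower (log2 change -0.67, SE 0.056, limma adjusted p = 0.000189). Cbx6, another such subunit, was at 0.30 by its brightest probe and at 0.00 by its dimmest, and Ezh1, a histone H3 lysine methyltransferase, and Cbx7 were at -0.35 and -0.29. Of 18 trithorax and demethylase genes, 8 were higher and 4 lower, again beside 31.9% and 29.1% of all genes, with a median of 0.07. The split was 10 higher and 2 lower without scaling, and 2 higher and 3 lower with a median of -0.02 by the dimmest probes. Kdm6b, which removes the Polycomb mark from histone H3, was lower (log2 change -0.56, SE 0.031, limma adjusted p = 3.98e-05), as was Kmt2b, a trithorax methyltransferase (-0.49). Dpy30, a shared subunit of those methyltransferases, was higher (0.44), and Dot1l, a histone H3 methyltransferase active on HOXA genes in human leukaemia, was at 0.43 by its brightest probe.

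Of 10 tested genes of retinoid signalling, 3 were higher and 4 lower, beside 31.9% higher and 29.1% lower of all genes, with a median of -0.24. That median was -0.04 without scaling (4 higher, 1 lower), -0.07 by the mean of each gene's probes and 0.02 by the dimmest probes. Cyp26b1, which breaks retinoic acid down, read 133, 134 and 128% in IRF7 cells, against 42.0, 40.9 and 39.5% in base-vector cells. It was higher with the groups far apart (log2 change 1.69, SE 0.037, limma adjusted p = 2.2e-06). Dhrs3, which returns retinal to retinol, read 2.35, 2.55 and 3.43% in IRF7 cells, against 9.10, 9.19 and 9.04% in base-vector cells. It was well above background on 1 IRF7 array and all 3 base-vector arrays (log2 change -1.74). Dhrs3 thus entered the test through the group where it was brighter, so its values are a description. Over the 7 retinoid genes detected on all 6 arrays, 3 were higher and 3 lower, at a median of -0.18. Rdh10, which makes retinal, was higher (0.51, limma adjusted p = 0.00131), and Rxrb, a retinoid X receptor, was at -0.39. Retinoic acid itself was not measured. Of 11 ParaHox and related genes only Gsx1 and Evx2 were tested, and neither passed (log2 changes 0.10 and 0.15), while Evx1, which borders the Hoxa cluster beyond Hoxa13, was not detected on any array.

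Of the neighbouring genes listed, 1 of 8 tested was higher and 1 lower around Hoxa, 3 of 19 higher and 5 lower around Hoxb, 5 of 11 higher and 2 lower around Hoxc, and 2 of 12 higher and 2 lower around Hoxd, where all genes had 31.9% higher and 29.1% lower. Over flanking genes detected on all 6 arrays, 1 of 8 was higher and 1 lower around Hoxa, and 3 of 16 were higher and 5 lower around Hoxb. Likewise 3 of 9 were higher and 2 lower around Hoxc, and 1 of 11 was higher and 2 lower around Hoxd. The medians over all tested neighbours were 0.01, -0.01, 0.12 and 0.03, each between 0.19 and 0.32 without scaling. Around Hoxb, Cdk5rap3 (-0.65), Scrn2 (-0.46) and Igf2bp1 (-0.34) were lower and Mrpl10 (0.23) was higher, Igf2bp1 losing its call without scaling and Mrpl10 with median centring. Near Hoxc, Nckap1l, a regulator of actin in blood cells, was higher (1.99), as was Itga5 (0.58), and Calcoco1 was lower (-1.15). By Hoxd, Chn1 was lower (-0.48) and Gpr155 higher by its brightest probe (0.65). Hnrnpa3 was at -0.33 by its brightest probe and 0.02 by its dimmest. Pde1b near Hoxc (1.86) and Chrna1 by Hoxd (1.33) were well above background on all 3 IRF7 arrays and only 1 base-vector array. Both entered the test through the group where they were brighter, so their values are a description.

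Markers of cell types were examined beside the Hox values, and their part in those values was not tested. Of 11 tested mammary carcinoma markers, 4 were higher and 3 lower, counts near the 31.9% and 29.1% of all genes, with a median of 0.04. The summed signal of the 14 listed, as a percentage of each array's 75th percentile, was 37900 to 39600% in IRF7 cells and 34400 to 36400% in base-vector cells. Most of this sum came from Krt18 and Krt8. Krt7 added 3440 to 3609% in IRF7 cells and 543 to 600% in base-vector cells. Such sums are led by the brightest probes and do not measure the share of a cell type. Krt7, a simple epithelial keratin, was higher (log2 change 2.63) with Esrp2 (0.39), and Elf3, an epithelial transcription factor, was lower (-0.77). Cldn7, a tight junction protein, was well above background on the base-vector arrays alone and entered the test through them, so its level, at least 4.68-fold lower in IRF7 cells, is a description, and over markers detected on all 6 arrays 4 were higher and 2 lower. Of 10 leukocyte markers 3 were detected on all 6 arrays, beside 51.2% of all genes. Of these 10 markers 4 were tested and 0 passed (limma, 0 at an unadjusted p under 0.05 as well). Csf1r entered the test only through the IRF7 arrays, the group where it was brighter, so its values are a description. Among those not tested, Lyz2 was detected on 2 IRF7 arrays alone, Adgre1 on 1 IRF7 array alone and Ptprc on 1 base-vector array alone. The summed signal of the 10 was 74.7 to 89.8% in IRF7 cells and 70.5 to 77.7% in base-vector cells. Of 6 tested endothelial and fibroblast markers, 1 was higher and 3 lower, and the summed signal of the 11 listed was 1860 to 2010% in IRF7 cells and 2130 to 2200% in base-vector cells. Over the 3 of them detected on all 6 arrays, Cdh5 was higher (1.06), Pdgfra lower (-1.21) and the median 0.08. Most of the sum came from Acta2 (1592 to 1735% in IRF7 cells, 1548 to 1625% in base-vector cells). Pdgfra added 233 to 244% in IRF7 cells and 546 to 558% in base-vector cells. Pdgfrb (at least 2.85-fold lower) and Dcn (at least 3.11-fold lower) entered the test only through the base-vector arrays, which alone read them well above background, and are given as a description. On no array were 4 of the 11 detected, Pecam1, Kdr, Col1a1 and Lum.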

How the data were processed

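Total RNA of 6 cultures was labelled with Cy3 for single-colour Agilent arrays, which the authors scanned and extracted with Agilent Feature Extraction (version 9.5.3.1, per the submitters' processing notes). Per the file headers, the deposited processed signal is a linear intensity, background-subtracted within each array and not scaled between arrays, and the deposited value table was identical to it. Probe positions are on mm7 (file headers), and names other than Hox were updated through the RefSeq gene table. Control spots (1639) and 111 to 121 outlier spots per array were left out.

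The level tested was log2 processed signal less the array's own 75th percentile, with limma 3.58.1 (lmFit and eBayes, R 4.3.3), IRF7 against base vector over 6 arrays with no block, on 15414 genes with a probe well above background on at least 3 arrays, with a threshold of 0.05 after Benjamini-Hochberg adjustment (4 residual and 1.64 prior degrees of freedom). For a probe below background throughout a group, the fold is bounded by that group's detection limit (or the probe's own signal where higher). The fit was tested on simulated data. Groups came from the sample titles. Named genes were all Hox genes, Irf7, and up to 4 members per list with the smallest p among those past the threshold, and any others were chosen after their values were seen. Values of 2 genes and some sequences are not reported here; both genes remain in the counts and medians. The Hox members and the 12 lists were chosen with earlier results of these data known. Tables and plots were made with Python 3.11.15, pandas 2.3.3 and matplotlib 3.10.9. The number of arrays limits the precision.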

Additional observations from a re-analysis of the deposited data

How the results depend on the processing

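Against 10 Hox genes lower and 1 higher, unscaled values gave 4 and 3, slide as a fixed block 6 and 0, and slide 1 alone 7 and 0. The count higher was also 0 with normexp background correction, with the mean of all probes and with the probe of lowest mean signal. Leaving out each array in turn gave 8 to 10 lower and 0 to 1 higher. Without the filter on dim probes 18 of 38 Hox genes were lower, 9 of them among the 23 genes left out of the test. Of all 27670 genes, 9749 were lower in that setting, so a lower call there is in itself no exception. The probes of those 23 mostly lay at the background, and the part of scaling in these calls was not tested. Over all genes 9397 passed, against 6205 with median centring, 14502 without the filter and 8265 to 9072 with an array left out. Unscaled values gave 6437 higher and 1701 lower in place of 4916 and 4481, and slide as a fixed block gave 3645 and 3476. Among the genes named here as past the threshold, signs turned for Hoxa7 (0.02, unscaled) and Hnrnpa3 (0.02, dimmest probe). Leaving arrays unscaled shifted every gene alike, so the turn of Hoxa7 is not particular to it. The cause of the difference between the Hnrnpa3 probes was not tested. Hoxc6 (-0.21 to 0.21) and Hoxd9 (-0.97 to 0.41), not past it, changed sign between settings. Slide as a block and slide 1 alone both rest on the IRF7 arrays against base-vector replicate 1 and are 1 check. Same-numbered arrays had correlated deviations of 0.04, 0.17 and 0.23, not all above 0.1, so the numbers were not taken to pair them, though each array correlated best with its own number, a hint from the data and not the design. With a replicate block 10 Hox genes were lower, 1 was higher and 9735 genes passed. Signal near the background limits Hoxc6, Hoxd4 and Hoxd9.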
